A study of Mus musculus with 2 samples.

Results

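The genes described here are 10 transcriptional targets of p53 other than Cdkn1a (p21), taken as a fixed list from the 19073 features measured: Mdm2, Ccng1, Phlda3, Trp53inp1, Sesn1, Sesn2, Btg2, Eda2r, Zmat3 and Aen. The list was chosen with earlier results of these data known. All 10 were present in both libraries and all passed the minimum of 200 UMIs (unique molecular identifiers, 1 per captured molecule) in the comparisons of libraries, of lobule ends and of Cdkn1a groups, while Phlda3 and Eda2r fell short of it within some single lobule positions. Hepatocytes came from male p16-Tom mice, heterozygous for p16-CreERT2 with R26-CAG-LSL-tdTomato-WPRE on a C57BL/6 background, in which tamoxifen given while p16Ink4a is transcribed turns on the red reporter tdTomato for good. The mice received carbon tetrachloride (CCl4) for 4 weeks, an agent that injures the liver around the central vein and causes fibrosis, and tamoxifen. Fixed cells were sorted as Tom- (p16low) or Tom+ (p16high), giving 1 library of each, so both groups share the mouse strain, CCl4 and tamoxifen and no untreated library is part of the data. The number of mice behind each library and their age were not stated.

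p53 is a transcription factor that is kept low by Mdm2 and rises after DNA damage and other stress. Its targets arrest the cell cycle, restrain growth signalling, repair damage or start apoptosis, and some of them shut p53 down again. In the liver, hepatocytes differ along the lobule from the portal vein (zone 1) to the central vein (zone 3), and CCl4 is turned into its toxic product by Cyp2e1, an enzyme of the central hepatocytes. Cdkn1a is the p53 target most used as a mark of arrest, but other pathways also control it.

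The p53 response element consists of a pair of 10-base half-sites. In the promoters tabulated by RefSeq (GRCm38.p6, 250 bases before to 50 after each start), 8 of the 10 genes had an entry, and the element was searched with no spacer, with the central C and G of each half-site fixed and at most 2 mismatches at the other 16 bases. The consensus reads the same on both strands. Of 32851 promoters, 107 (0.326%) held a match. Among the 8 genes with an entry, Ccng1 held a match, and Cdkn1a held 1 in the promoter of its upstream start. These elements, with the 20 matching bases in capitals and 10 bases on each side, are shown as the stretches of these promoters that match the element, 5′ to 3′ on the strand of the gene. The Ccng1 window is chr11:40755452-40755491 (minus strand) and begins its element 195 bases before the start. The Cdkn1a window is chr17:29090918-29090957 (plus strand) and begins its element 51 bases before the start. Both elements carried 1 mismatch.
Ccng1: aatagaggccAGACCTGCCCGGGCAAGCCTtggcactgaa
Cdkn1a: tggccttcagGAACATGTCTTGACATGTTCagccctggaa
A match in these windows is a description of the letters, and elements outside them were not looked for.

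After the filters of the study and a gate on hepatocyte clusters, 11015 Tom- and 9900 Tom+ hepatocytes were analysed, with a median of 32355 and 35555 UMIs per cell. The gate removed 45.4% of the kept Tom- cells and 26.0% of the kept Tom+ cells. tdTomato was 72.7 CPM (UMIs of a gene in every 1000000 UMIs) in Tom- and 813 CPM in Tom+ hepatocytes, in the direction of the labels. At least 1 tdTomato UMI was found in 85.5% of Tom- and 99.8% of Tom+ hepatocytes, so Tom- cells were not free of reporter counts. The hepatocyte marker list summed to 144130 and 137806 CPM. Endothelial, stellate and immune lists summed to 76.9, 45.4 and 244 CPM in Tom- and 56.8, 49.3 and 200 CPM in Tom+ hepatocytes, with no marker at 0. The gate kept 3 clusters whose leading genes include markers of other cell types, cluster 8 (847 cells, Col3a1, Col1a1 and Dcn), cluster 12 (260 cells, Clec4f and Cd5l) and cluster 13 (67 cells, Krt19 and Epcam). Without them the same members were called between libraries and between lobule ends, and Zmat3 joined Phlda3 and Eda2r between Cdkn1a groups. The libraries shared 503 cell barcodes. Doublets were not called. Hepatocyte clusters with at least 90% of their cells from 1 library held 1651 Tom- and 131 Tom+ cells in cluster 5, 35 and 1511 in cluster 6, 37 and 472 in cluster 10, and 0 and 21 in cluster 15. Each group rests on 1 library, so no test between them was possible: intervals are 95% exact intervals for counting error only, and a gene is called past a fold when its summed level differs by at least 1.5-fold. Levels were read by probes whose efficiency differs between genes, so they are compared within a gene and not between genes.

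Between the libraries, 1 of the 10 genes was past the fold, Phlda3, which was higher in Tom+ hepatocytes. Across 11682 genes, 3.09% were called higher and 1.25% lower in Tom+. The median log2 ratio of the 10 genes was 0.09, against 0.04 over all genes. Phlda3, a protein that competes with Akt for membrane lipids and so restrains it (chromosome 1, 135766119 to 135769136, plus strand, GRCm38), was 2.36 CPM (2.21 to 2.51) in Tom- and 4.28 CPM (4.08 to 4.49) in Tom+ hepatocytes, a log2 ratio of 0.86 (0.74 to 0.98). Mdm2, the ubiquitin ligase that degrades p53 (chromosome 10, 117688875 to 117710758, minus strand), was 82.2 CPM in Tom- and 105 CPM in Tom+, a log2 ratio of 0.35 (0.33 to 0.37). Both intervals lay above 0, but the fold of Mdm2 was only 1.27. Without the clusters of mostly 1 library, the log2 ratio was 0.60 for Phlda3, still past the fold, and 0.14 for Mdm2.

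The other 8 genes differed by less than 1.2-fold between the libraries. Ccng1, a cyclin-like protein that acts with the phosphatase PP2A on Mdm2 (chromosome 11, 40748552 to 40755311, minus strand), was 61.8 CPM in both. Trp53inp1, a stress protein that promotes p53 activity and autophagy (chromosome 4, 11156431 to 11174379, plus strand), was 263 CPM in Tom- and 279 CPM in Tom+. These genes had ratios close to 1 despite many counted molecules. Eda2r, the receptor for ectodysplasin A2 of the TNF receptor family (X chromosome, 97333840 to 97377216, minus strand), was 2.52 and 2.90 CPM, a log2 ratio of 0.20 that was 0.01 without the clusters of mostly 1 library. Zmat3, a zinc finger protein that binds RNA (chromosome 3, 32334792 to 32366014, minus strand), was 9.67 and 10.6 CPM. Aen, a nuclease that enhances apoptosis (chromosome 7, 78895854 to 78911209, plus strand), was 33.0 and 31.6 CPM. Of these genes Eda2r and Zmat3 were slightly higher and Aen slightly lower in the Tom+ library.

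The sestrins, stress proteins that restrain mTORC1, differed little between the libraries. Sesn1 (chromosome 10, 41809935 to 41908424, plus strand) was 11.4 CPM in Tom- and 12.2 CPM in Tom+, a log2 ratio of 0.10 that was -0.01 without the clusters of mostly 1 library. Sesn2 (chromosome 4, 132492032 to 132510501, minus strand) was 10.6 and 9.94 CPM, a log2 ratio of -0.09. Btg2, an antiproliferative factor that recruits the mRNA deadenylase (chromosome 1, 134075170 to 134079120, minus strand), was 30.0 and 27.4 CPM, a log2 ratio of -0.13. For reference, Cdkn1a was 105 CPM in Tom- and 87.1 CPM in Tom+, a log2 ratio of -0.27 (-0.29 to -0.25). Cdkn1a therefore stood lower in the Tom+ library while Phlda3 and Mdm2 stood higher. Cdkn2a, the gene that encodes p16Ink4a among its products, was 0.183 CPM in Tom- and 0.192 CPM in Tom+, from 148 UMIs in all. These counts are too few to show whether Cdkn2a differed, and the name p16high stands here for the sort on tdTomato. By qPCR on sorted cells, the study reported higher p16Ink4a in Tom+ than in Tom- hepatocytes. Trp53, which encodes p53 itself, was 31.7 and 32.5 CPM.

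Lobule position differed between the libraries, so each gene was next read along the lobule. Each hepatocyte received a score from 14 central and 12 portal markers. None of the markers is on the fixed list of p53 targets described here, but whether p53 acts on any marker was not tested. The pooled cells were cut into 6 equal bins, with position 1 at the portal end and position 6 at the central end. The portal bin held 2728 Tom- and 758 Tom+ cells, and the central bin held 871 and 2615. Cyp2e1 went from 183 to 4001 CPM from portal to central in Tom- and from 251 to 4119 CPM in Tom+, and Cyp2f2, a portal enzyme, fell from 397 to 24.9 CPM and from 518 to 18.4 CPM. Both are markers of the score, so their gradients follow from the binning.

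Of the 10 genes, 5 were higher at the central than at the portal end past the fold in both libraries: Phlda3, Eda2r, Mdm2, Trp53inp1 and Zmat3. Across 9992 genes, 11.1% were called higher and 4.84% lower at the central end, and none of the 10 genes was called lower. Levels in CPM shifted as a whole: the median log2 ratio of all genes was 0.18 in Tom- and 0.24 in Tom+, and the median of the 10 genes was 0.60 and 0.61. With scaling by the median of ratios, which takes that shift out, the count was 4 and the call of Trp53inp1 was lost, at log2 ratios of 0.70 in Tom- and 0.52 in Tom+. With 3 bins in place of 6, the count was also 4 and the call of Zmat3 was lost, at a log2 ratio of 0.56 in Tom-. No share of all genes is given for these alternatives.

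Phlda3 and Eda2r had the largest ratios of the 10. In Tom- hepatocytes Phlda3 was 1.36, 1.40, 2.27, 2.74, 3.88 and 5.62 CPM from position 1 to 6. In Tom+ it was 1.42, 1.53, 2.22, 4.48, 5.01 and 6.995 CPM. Both libraries were flat over the first pair of bins and higher in each later bin, and the central level exceeded the portal level by a log2 ratio of 2.05 (1.71 to 2.39) in Tom- and 2.30 (1.88 to 2.76) in Tom+. Phlda3 was higher in profiles with stellate RNA: the cluster led by stellate markers (229 cells) had 56.8 CPM, with a stellate list of 5202 CPM and a hepatocyte list of 129169 CPM. In hepatocytes that list was 27.2 CPM at the portal and 67.2 CPM at the central end in Tom-, and 22.2 and 56.5 CPM in Tom+. Its part in the result was not tested.

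Eda2r was also higher toward the central end, although position 5 did not exceed position 4 in either library. It was 1.47, 2.09, 2.69, 2.99, 2.97 and 5.18 CPM from position 1 to 6 in Tom- and 0.844, 1.41, 2.24, 3.72, 3.10 and 3.98 CPM in Tom+. The lowest bin was the portal and the highest the central in both libraries, with a log2 ratio of 1.82 (1.48 to 2.16) and 2.24 (1.68 to 2.85), the latter resting on 28 UMIs at the portal end. Eda2r was 4.03 CPM in the stellate cluster of Tom- and 2.14 CPM in that of Tom+, from 6 and 1 UMIs.

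Mdm2 rose in every step toward the central vein. It was 65.8, 71.6, 79.6, 92.2, 99.2 and 128 CPM in Tom- and 68.5, 74.7, 84.3, 100.3, 115 and 138 CPM in Tom+. The central level was 1.95-fold the portal level in Tom- and 2.01-fold in Tom+. Trp53inp1 also rose at every step, from 213 to 391 CPM in Tom- and from 202 to 342 CPM in Tom+, 1.83-fold and 1.70-fold. Zmat3 went from 8.23 to 14.1 CPM in Tom- and from 7.45 to 13.5 CPM in Tom+, 1.71-fold and 1.81-fold. At the same end, the libraries differed less in these genes than the ends did within a library.

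The remaining genes were flatter. Ccng1 was 58.0 CPM at the portal and 74.0 CPM at the central end in Tom-, and 49.5 and 68.4 CPM in Tom+, log2 ratios of 0.35 and 0.47. Btg2 was 29.1 and 39.2 CPM in Tom- and 24.9 and 28.7 CPM in Tom+, and its ratio in Tom+ (log2 0.20) was below the median of all genes and became -0.04 with median-of-ratios scaling. Aen had ratios of 0.28 and 0.24, near the median of all genes. Sesn2 stayed between 10.1 and 11.1 CPM over the 6 bins of Tom- and between 9.43 and 10.2 CPM in Tom+. Sesn1 was lowest at the central end in both libraries, 10.3 against 12.3 CPM in Tom- and 11.6 against 12.7 CPM in Tom+, log2 ratios of -0.25 (-0.44 to -0.06) and -0.13 (-0.29 to 0.03).

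**Figure D1:**
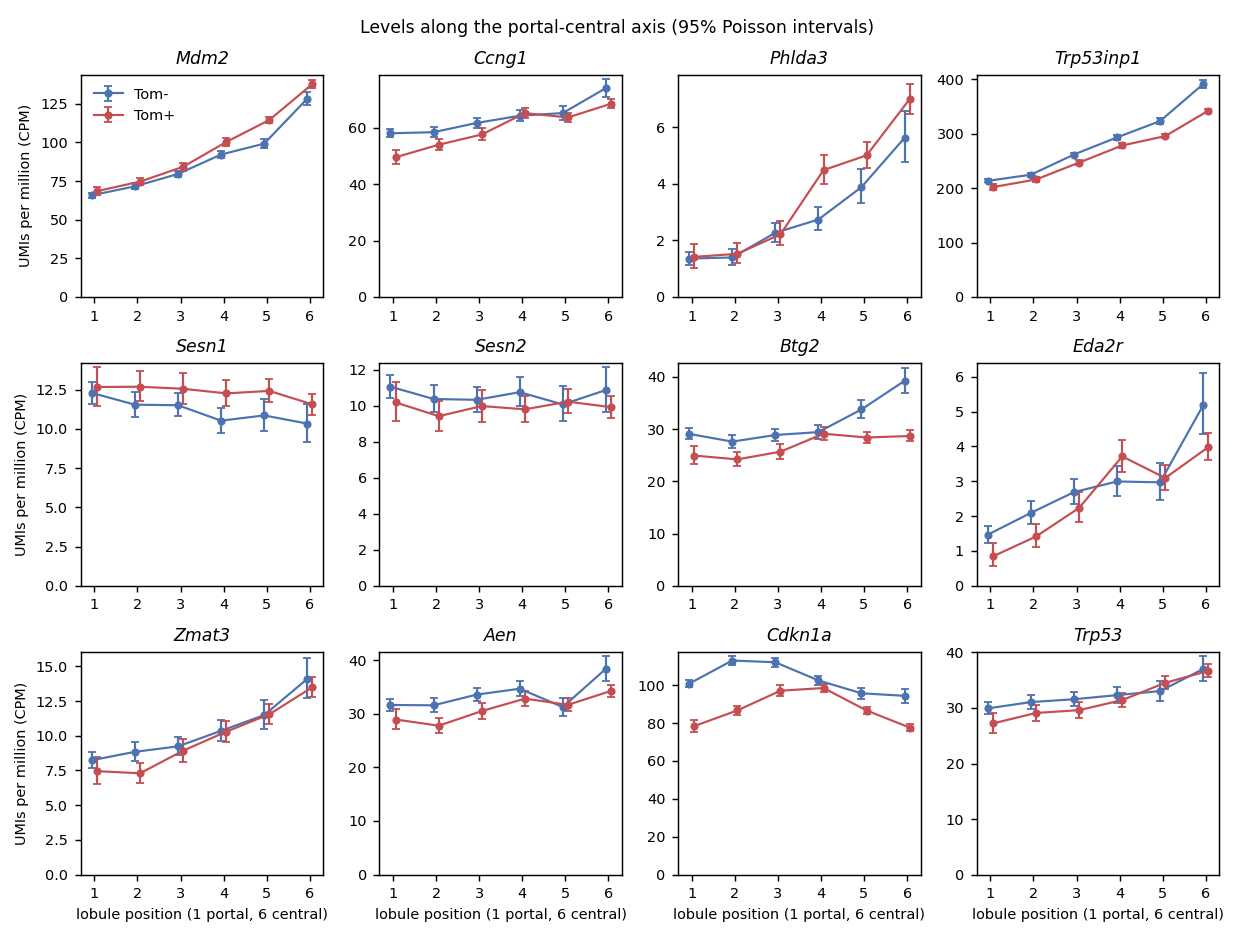
Level of each gene (CPM, y axis from 0) in the 6 lobule positions (x axis, 1 portal to 6 central) for Tom- and Tom+ hepatocytes, with 95% Poisson intervals as bars. Phlda3, Eda2r, Mdm2, Trp53inp1 and Zmat3 climb toward position 6, Sesn1 and Sesn2 do not, and Cdkn1a is highest at position 2 in Tom- and at position 4 in Tom+.

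Cdkn1a did not follow the members that were high at the central vein. It was 101, 113, 112, 103, 95.8 and 94.4 CPM from position 1 to 6 in Tom- and 78.4, 86.7, 97.1, 98.5, 86.7 and 77.6 CPM in Tom+. Its highest levels were at position 2 in Tom- and position 4 in Tom+, and the ends differed by log2 ratios of -0.09 and -0.01. Trp53 was 29.9 at the portal and 37.0 CPM at the central end in Tom- and 27.2 and 36.7 CPM in Tom+, log2 ratios of 0.31 and 0.43. Other programmes also differed along the lobule. The summed immediate early genes went from 781 to 986 CPM in Tom- and 721 to 847 CPM in Tom+, and the summed ATF4 programme fell from 737 to 378 CPM and from 851 to 423 CPM. Their part in the result was not tested.

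Read within the same position bin, the call of Phlda3 between the libraries was lost. The bins match position only roughly: the median score was 0.551 in Tom- and 0.583 in Tom+ at position 4, and 0.910 and 0.929 at position 6. Averaged over the 6 positions, no gene was past 1.5-fold, and Phlda3 had a log2 ratio of 0.26 (bins from -0.03 to 0.71) against 0.86 over all hepatocytes. Phlda3 had intervals that include 0 at positions 1 to 3 and was higher in Tom+ at positions 4, 5 and 6, with log2 ratios of 0.71 (0.44 to 0.98), 0.37 (0.11 to 0.63) and 0.32 (0.06 to 0.58). Mdm2 was higher in Tom+ in all 6 bins, with a mean log2 ratio of 0.11. Sesn1 was also higher in all 6 bins, with a mean of 0.15. Of all genes, 19.6% were higher and 21.1% lower in Tom+ in all 6 bins, so 2 of 10 members in each direction is near the background.

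Trp53inp1, Eda2r and Zmat3 changed sign within position bins. Trp53inp1 was higher in Tom+ over all cells (log2 0.08) but lower in all 6 bins, with a mean of -0.10 (bins from -0.19 to -0.06). Eda2r went from 0.20 to a mean of -0.27, with bins from -0.80 to 0.31, and Zmat3 from 0.13 to -0.09. Ccng1, equal over all cells, had a mean of -0.09 and was lower in Tom+ in 5 of the 6 bins. Btg2 was lower in Tom+ in all 6 bins, with a mean of -0.22 that reached -0.45 at position 6. Cdkn1a was lower in all 6 bins as well, with a mean of -0.24. Summed over the clusters with at least 90% Tom+ cells (6, 10 and 15, with 2004 Tom+ cells), Cdkn1a was 48.1 CPM against 96.8 CPM in the other Tom+ hepatocytes. Cdkn1a was low in clusters 6 and 10, at 54.3 and 28.3 CPM, and not in cluster 15, at 127 CPM in 21 cells. Members lower in the same sum were Btg2 (17.8 against 29.8 CPM), Trp53inp1 (250.3 against 287 CPM) and, slightly, Aen (30.8 against 31.8 CPM). Members higher there were Mdm2 (131 against 98.1 CPM), Phlda3 (5.81 against 3.90 CPM), Sesn1 (15.2 against 11.5 CPM), Zmat3 (12.2 against 10.1 CPM), Eda2r (3.52 against 2.75 CPM) and Ccng1 (67.6 against 60.4 CPM), and Sesn2 was 10.1 against 9.90 CPM. These sums were not matched for position: central cluster 6 gave 1511 of the 2004 cells. Cluster 0, a central cluster with both libraries, had levels near those of cluster 6 for Phlda3 (6.70 and 7.25 CPM), Zmat3 (13.8 and 13.7 CPM) and Eda2r (4.35 and 4.19 CPM). Mdm2 was lower in cluster 0, at 127 CPM against 144 CPM in cluster 6. Other genes differed between clusters 0 and 6: Cdkn1a (96.7 and 54.3 CPM), Btg2 (37.0 and 18.3 CPM), Trp53inp1 (367 and 265 CPM) and Sesn1 (10.8 and 14.7 CPM). Clusters 6 and 10 have the clock output gene Dbp among their leading genes.

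**Figure D2:**
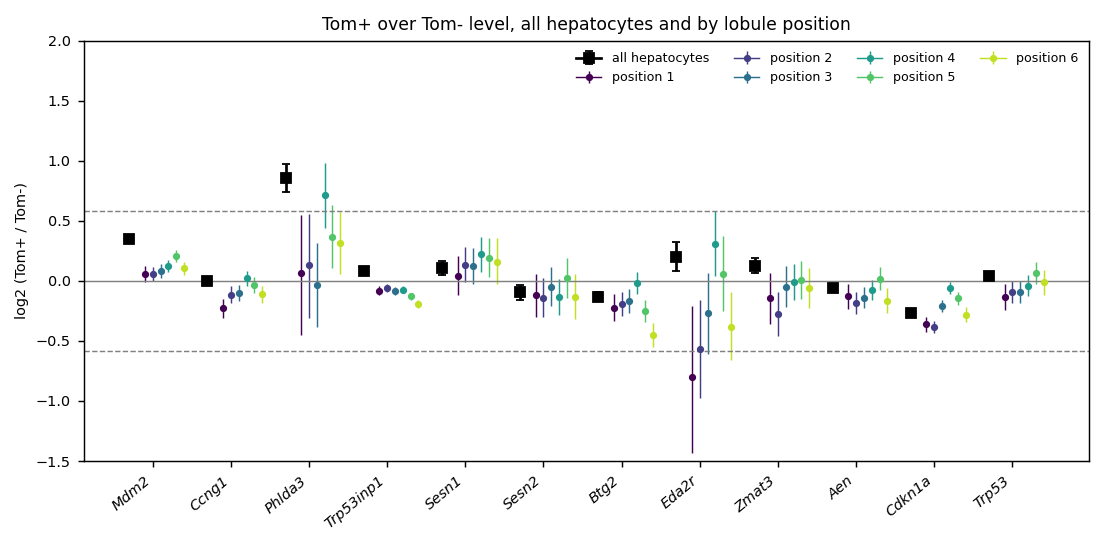
Log2 ratio of Tom+ over Tom- levels (y axis) for each gene, over all hepatocytes (black squares) and within each lobule position (circles), with 95% exact intervals and dashed lines at 1.5-fold. Phlda3 lies above the line over all hepatocytes, at 0.86, but most of its positions lie nearer to 0.

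Across the hepatocyte clusters of at least 50 cells (15 clusters, each holding both libraries), the interferon-led cluster 11, headed by Rsad2, Cxcl10 and Ifit3b, had the highest level of 6 of the 10 genes: Ccng1, Phlda3, Trp53inp1, Btg2, Eda2r and Aen. Of 11682 genes, 5.77% were highest in that cluster. For Trp53inp1 and Btg2 the interval lay above that of the next cluster, and for Ccng1, Phlda3, Eda2r and Aen it overlapped it. Trp53inp1 was 499 CPM there against a median of 262 CPM over clusters, Phlda3 7.29 against 1.83 CPM (and 7.25 CPM in cluster 6), and Btg2 46.8 against 26.4 CPM. Cdkn1a was 117 CPM there and in cluster 3, and Trp53 was 38.2 CPM against 36.8 CPM in the next cluster. Cluster 10, at the portal end and of mainly Tom+ cells, had the lowest Phlda3, Btg2 and Aen, with Cdkn1a at 28.3 CPM. The median lobule score of cluster 11 was 0.739, in the range of position 5. Central cluster 0 had 367 CPM of Trp53inp1, 6.70 CPM of Phlda3 and 37.0 CPM of Btg2. Clusters were built from all genes and not matched for position, so these levels are a description.

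Outside the hepatocyte gate, the immune-led cluster of Tom- (376 cells, median depth 6809 UMIs) had 45.9 CPM of Sesn1 against 11.4 CPM in the hepatocytes, and that of Tom+ had 52.3 against 12.2 CPM. Btg2 was 60.8 CPM in the immune-led cells of Tom- and 44.1 CPM in those of Tom+. Eda2r was 1.57 and 1.16 CPM there, from 6 and 2 UMIs, too few to set against the hepatocytes. These profiles are mixtures: the hepatocyte list was 120688 CPM in the immune-led cluster, so its levels are not those of immune cells alone.

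The relation of the 10 genes to Cdkn1a was read cell by cell. So that depth did not set the groups, each hepatocyte of at least 10000 UMIs was drawn down to that number and placed by its Cdkn1a count in a group of 0, 1, 2 or 3 or more, and the level of each other gene was taken from all UMIs of the cells in a group. This left out 431 Tom- and 402 Tom+ cells. The high group held 1142 Tom- cells (10.8%) and 819 Tom+ cells (8.62%), and its median depth was 33093 and 38831 UMIs against 32934 and 35206 in the group at 0. The share at the central end was 6.39% in the high group and 9.22% at 0 in Tom-, and 23.9% and 29.2% in Tom+, so the cells of the high group were not more central.

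Of the 10 genes, 9 were higher in the high Cdkn1a group than at 0 in both libraries, where 70.9% of all genes had a ratio above 0 in Tom- and 63.4% in Tom+, and 2 were past the fold in both, Phlda3 and Eda2r. Only 0.0958% of 10441 genes were called higher and 0.0383% lower, that is 10 genes and 4. The median log2 ratio was 0.37 in Tom- and 0.67 in Tom+ for the 10 genes, against 0.05 and 0.03 over all genes. In all 10 genes the ratio was higher in Tom+ than in Tom-, a difference that was not tested. For Sesn1 both log2 ratios were below 0, at -0.11 in Tom- and -0.06 in Tom+, with overlapping intervals. No share of all genes with a higher ratio in Tom+ is given, so this count has no background beside it. The groups also lay farther apart in Cdkn1a itself in Tom+, from 46.0 to 224 CPM (4.88-fold), than in Tom-, from 59.6 to 221 CPM (3.71-fold), and within positions the ratio of Eda2r was not higher in Tom+.

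Phlda3 was 1.47, 1.97, 2.71 and 6.21 CPM in the Tom- groups at 0, 1, 2 and 3 or more Cdkn1a UMIs. In Tom+ it was 2.26, 3.77, 5.69 and 15.1 CPM. It rose at each step, and the high group exceeded the group at 0 by 4.22-fold in Tom- and 6.67-fold in Tom+, log2 ratios of 2.08 (1.82 to 2.34) and 2.74 (2.55 to 2.93). Eda2r was 1.61, 2.30, 3.07 and 5.83 CPM in Tom- and 1.80, 2.56, 3.94 and 8.52 CPM in Tom+, 3.62-fold and 4.73-fold. Phlda3 molecules lay in a minority of the cells: 151 of the 1142 Tom- cells and 200 of the 819 Tom+ cells of the high group had one. The 10 cells with the most held 25.1% and 18.4% of the Phlda3 UMIs of the group.

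Aen, Zmat3 and Ccng1 came next. Aen was 29.5, 32.1, 36.1 and 43.3 CPM in the groups of Tom- and 26.5, 31.7, 36.1 and 52.5 CPM in Tom+, 1.47-fold and 1.98-fold from 0 to the high group. Zmat3 went from 8.91 to 12.2 CPM in Tom- and from 9.22 to 17.1 CPM in Tom+, 1.36-fold and 1.86-fold. Ccng1 went from 58.1 to 75.9 CPM and from 55.3 to 90.4 CPM, 1.31-fold and 1.63-fold. Each was past the fold in Tom+ and short of it in Tom-, a difference between the libraries that was not tested.

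Sesn2 went from 9.81 to 12.5 CPM in Tom- and from 9.22 to 13.6 CPM in Tom+. Mdm2 was 78.0, 81.4, 82.0 and 98.5 CPM in Tom- and 98.6, 101, 109 and 141 CPM in Tom+, so most of its difference lay in the last group. Trp53inp1 went from 249 to 306 CPM and from 257 to 357 CPM. Btg2 was level over the first 3 groups of Tom- (28.9 to 29.5 CPM) and 34.6 CPM in the last. In Tom+ it went from 24.4 to 38.0 CPM, 1.56-fold, so it too was past the fold in Tom+ and short of it in Tom-. The Btg2 log2 ratio in Tom+ fell short of the fold without the clusters of mostly 1 library (0.51) and within positions (0.57). It stayed past 1.5-fold at the other alternative ratios. Sesn1 was the exception, at 11.7 CPM at 0 and 10.8 CPM in the high group of Tom-, and 12.6 and 12.1 CPM in Tom+, with intervals that include no difference. Trp53 differed little, with log2 ratios of 0.10 and 0.18.

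**Figure D3:**
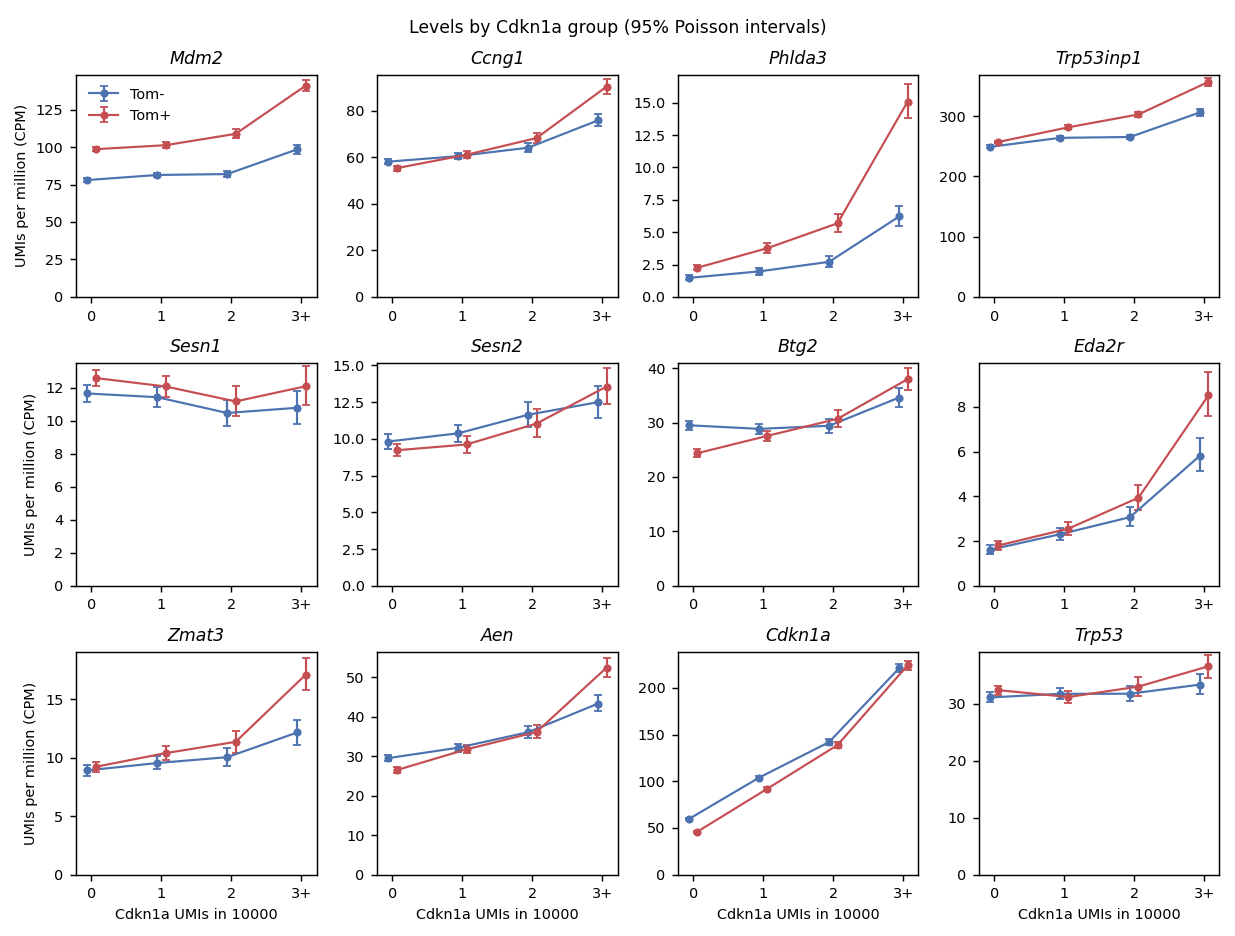
Level of each gene (CPM, y axis from 0) in hepatocytes grouped by their Cdkn1a count after thinning to 10000 UMIs (x axis), with 95% Poisson intervals. Phlda3 and Eda2r climb most steeply, from 2.26 to 15.1 CPM and from 1.80 to 8.52 CPM in Tom+, and Sesn1 is flat.

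The relation held inside lobule positions. Comparing the groups within each of the 6 positions and averaging gave log2 ratios of 2.13 in Tom- and 2.25 in Tom+ for Phlda3, 1.95 and 1.90 for Eda2r, and 0.61 and 0.90 for Aen, which then passed the fold in both. Mdm2, Ccng1, Phlda3, Trp53inp1, Sesn2, Eda2r and Aen were higher in the high group in all 6 positions of both libraries, as were 3.36% of all genes. Of the lists of other cell types, the stellate list was 45.9 CPM at 0 and 43.9 CPM in the high group of Tom-, and 50.5 and 51.7 CPM in Tom+. The endothelial list was 76.9 and 75.3 CPM in Tom- and 56.3 and 61.4 CPM in Tom+, and the immune list 246 and 231 CPM and 200.1 and 196 CPM. The cholangiocyte list was higher in the high group, at 8.96 and 10.1 CPM in Tom- and 5.40 and 8.84 CPM in Tom+. The summed immediate early genes were 799 and 841 CPM in Tom- and 774 and 819 CPM in Tom+, and the ATF4 programme was 627 and 673 CPM and 619 and 664 CPM. Their part in the result was not tested.

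Phlda3 and Eda2r had the largest ratios both along the lobule and across Cdkn1a groups. Among all genes, Mdm2 and Trp53inp1 lay between the 89.9th and 94.8th percentiles along the lobule and at or above the 98.0th across Cdkn1a groups. Aen lay at the 63.9th and 50.7th percentiles along the lobule and at the 99.8th in both libraries across Cdkn1a groups. Sesn2 lay at the 26.2nd and 20.4th percentiles along the lobule and at the 98.7th and 99.2nd across Cdkn1a groups.

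**Figure D4:**
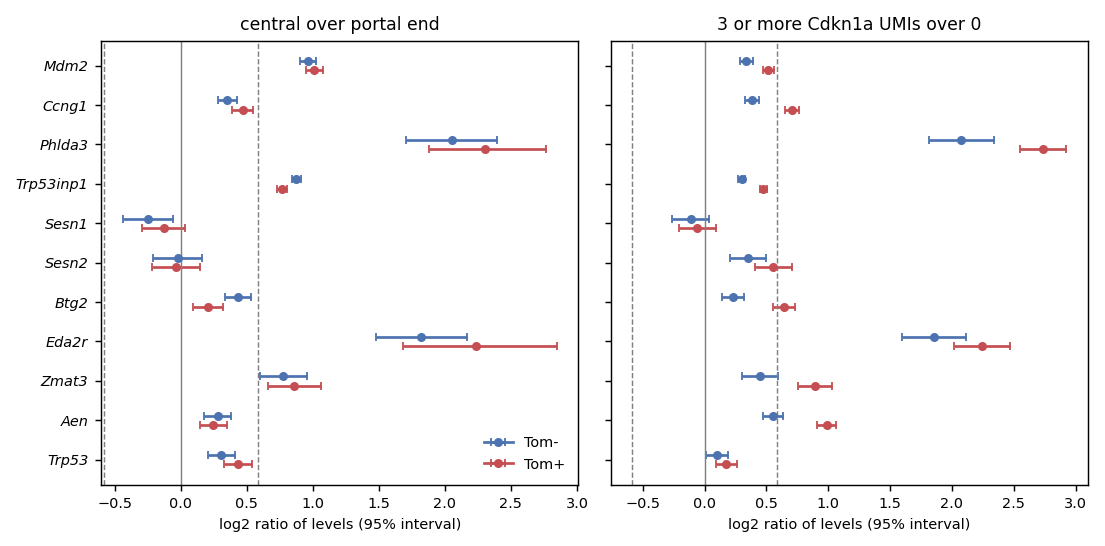
Log2 ratios (x axis) of the central over the portal end (left) and of the high Cdkn1a group over the group at 0 (right) for each gene in Tom- and Tom+ hepatocytes, with 95% exact intervals and dashed lines at 1.5-fold. Phlda3 and Eda2r lie farthest to the right in both panels, and Sesn1 lies at or below 0.

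In single cells the correlations with Cdkn1a were weak. Pearson's r on log counts thinned to 10000 UMIs, over 10584 Tom- and 9498 Tom+ cells of 1 library each, ran from -0.02 for Sesn1 to 0.07 for Aen in Tom- and from -0.01 for Sesn1 to 0.14 for Phlda3 in Tom+. Across all genes, 90% of the r values lay between -0.02 and 0.03 in each library. Most of the 10 genes average well under 1 UMI per cell after thinning, as low as 0.0239 for Phlda3 in Tom-. The genes with the highest r in Tom+ were Phlda3 and Trp53inp1, followed by Exoc4 and Mt2. In Tom- Gdf15, another p53 target, was first and Aen ninth, and Gdf15 was followed by Errfi1, Exoc4, Mug2 and Mug1. Exoc4, Mt2, Errfi1, Mug2 and Mug1 are not among the p53 targets read here. Phlda3 and Eda2r had r of 0.09 with each other in Tom- and 0.16 in Tom+, the latter the highest among pairs of the 10 genes in that library. In Tom- the highest was 0.15 for Mdm2 with Trp53inp1.

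Cells with Phlda3 or Eda2r molecules were then looked at directly, a grouping chosen after these values were seen. By the summed Phlda3 and Eda2r count after thinning, 10134 Tom- cells had 0, 395 had 1 and 55 had 2 or more, and 8967, 424 and 107 in Tom+. Cells with 2 or more were 0.520% of Tom- and 1.13% of Tom+ hepatocytes, and 23.6% and 50.5% of them were at the central end, against 7.63% and 25.8% of the cells at 0. Phlda3 and Eda2r were themselves higher at the central end, so this share is not independent of the grouping. Median depth was 32914 against 33279 UMIs in Tom- and 34102 against 36627 in Tom+.

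The other members were higher in these cells, Sesn1 apart. From 0 to 2 or more UMIs, 6 of the other 8 members were past 1.5-fold in both libraries, or 7 with the pseudocount of 0.5 UMIs that calls carry, which takes Sesn2 over the limit in Tom- (log2 0.58, 0.03 to 1.08). With the same pseudocount, 4.4% of 10911 genes were called higher and 1.04% lower. The median log2 ratio of the 8 was 1.14 in Tom- and 1.27 in Tom+, against 0.11 and 0.20 over all genes. Zmat3 was 9.22, 17.0 and 33.9 CPM at 0, 1 and 2 or more in Tom- and 9.80, 18.9 and 39.8 CPM in Tom+. Aen was 32.0, 50.2 and 77.6 CPM in Tom- and 29.8, 49.1 and 115 CPM in Tom+. Mdm2 was 80.1, 113 and 191 CPM in Tom- and 101, 147 and 269 CPM in Tom+. From 0 to 2 or more, these 3 genes differed by 2.38- to 4.06-fold, and in each case the middle group lay between the others.

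Ccng1 went from 60.4 to 130.2 CPM in Tom- and from 59.0 to 186 CPM in Tom+. Trp53inp1 went from 258 to 520.0 CPM and from 272 to 578 CPM. Btg2 went from 29.2 to 65.9 CPM and from 26.4 to 49.9 CPM. Sesn2 went from 10.5 to 15.7 CPM and from 9.63 to 20.7 CPM. Sesn1 was 11.3 and 13.3 CPM in Tom- and 12.1 and 14.5 CPM in Tom+, with intervals of the log2 ratio (-0.37 to 0.78 and -0.14 to 0.62) that include 0. Bax, a death effector and p53 target outside the list, went from 100.1 to 246 CPM and from 103 to 285 CPM. Cdkn1a went from 102 to 250.1 CPM and from 82.4 to 264 CPM, and it is not independent of the grouping, since the pair was picked for its relation to Cdkn1a. The other members are not fully independent of it either, as the grouping was chosen after the correlations were seen. Trp53 itself was 31.5 and 41.8 CPM in Tom- and 32.4 and 40.5 CPM in Tom+.

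Within positions, comparing cells with 1 or more of these UMIs to cells at 0, Mdm2, Ccng1, Trp53inp1, Zmat3 and Aen were higher in all 6 positions of both libraries, as were 0.972% of all genes. Some positions held few cells with these UMIs. In Tom+ the portal end held 1.89% of the 424 cells with 1 and 2.80% of the 107 cells with 2 or more. The mean log2 ratio was 0.95 in Tom- and 1.01 in Tom+ for Zmat3, 0.74 and 0.87 for Aen, and 0.52 and 0.54 for Mdm2. Sesn1 was -0.02 and 0.31. Trp53 was 0.10 and -0.15.

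**Figure D5:**
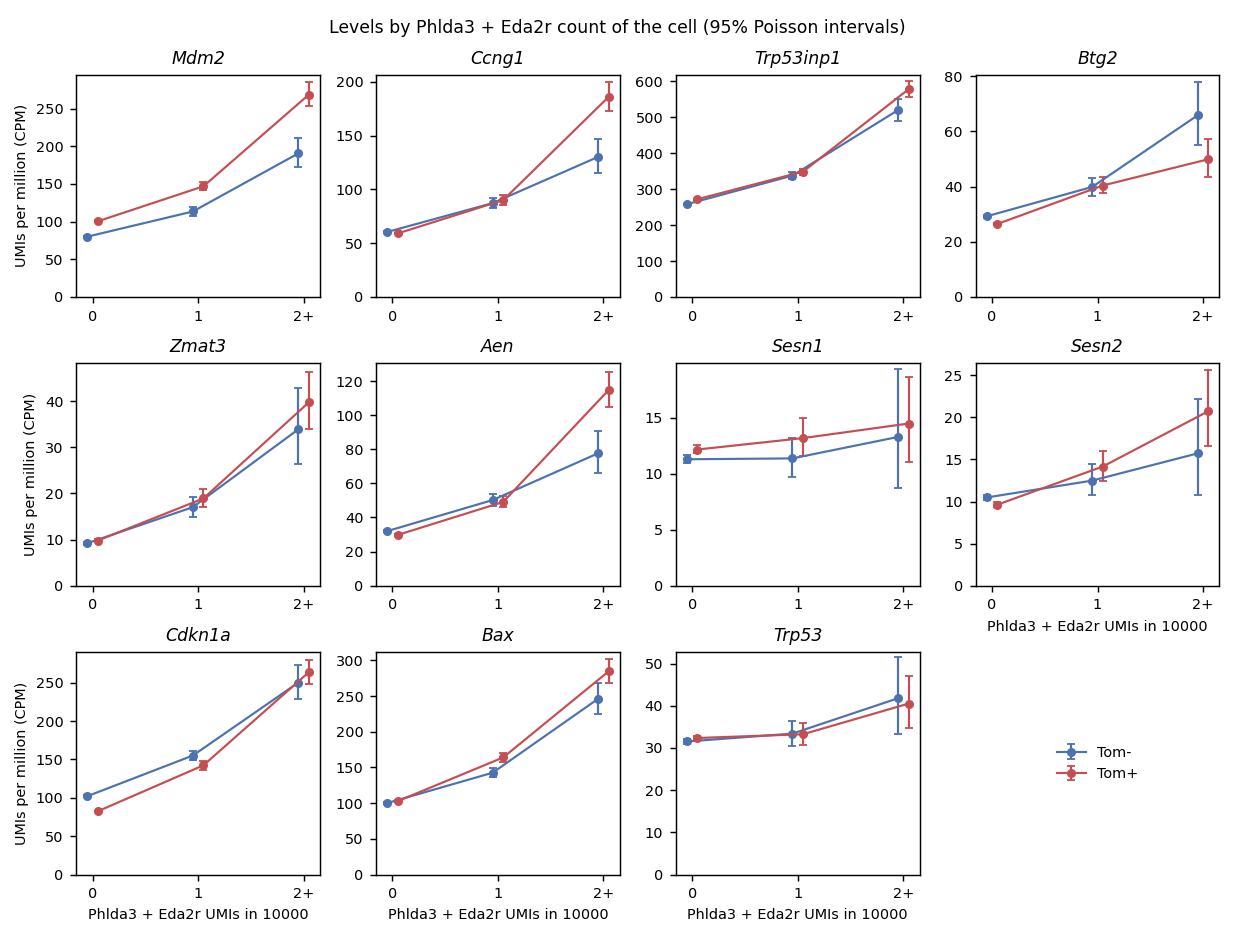
Level of the other 8 members, of Cdkn1a, Bax and Trp53 (CPM, y axis from 0) in hepatocytes grouped by their summed Phlda3 and Eda2r count after thinning to 10000 UMIs (x axis), with 95% Poisson intervals. Mdm2, Ccng1, Trp53inp1, Btg2, Zmat3 and Aen climb over the groups in both libraries, and Sesn1 stays between 11.3 and 14.5 CPM.

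Further p53 targets were read as a list of 29 measured genes outside the 10. Across Cdkn1a groups 3 of 23 testable genes were called higher, against 0.0958% of all genes, and none was called lower. They were Gtse1, a cell-cycle protein that binds p53 (log2 0.87 in Tom- and 1.85 in Tom+), Tnfrsf10b, a death receptor (0.86 and 1.52), and Plk2, a polo-like kinase (0.72 and 1.43). Together with Phlda3 and Eda2r these make 5 of the 10 genes called higher among all genes. Both lists were chosen with earlier results of these data known, so this count is not independent of the data. The other 5 were Gria3, Mybl1, Fgf21, Micall2 and Notch1, on neither list. The 4 called lower were H2-Q1, Hao2, Clec2h and Chrna4, of which H2-Q1 leads cluster 6 and Chrna4 is a leading gene of cluster 10, both with at least 90% Tom+ cells.

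Between the lobule ends, 3 of 22 testable further targets were called higher and none lower, a share near the 11.1% of all genes: Gtse1 (log2 1.34 and 1.62), the growth arrest gene Gadd45a (1.24 and 1.58) and the death gene Bbc3 (0.64 and 0.66). Between the libraries 1 of 27 was called higher in Tom+, near the 3.09% of all genes: Psrc1, at 0.22 CPM in Tom- and 0.53 CPM in Tom+. The median log2 ratio of the further targets was 0.19 in both libraries across Cdkn1a groups, against 0.05 and 0.03 over all genes. Between the lobule ends it was 0.23 and 0.27, against 0.18 and 0.24 over all genes. Of the regulators of p53, Hipk2, a kinase that phosphorylates p53, was called higher at the central end (0.88 and 0.98), 1 of 10 testable genes against 11.1% of all genes, and none was called between libraries or between Cdkn1a groups.

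The genes whose levels were most like each member over the 12 sums (6 positions of 2 libraries) were found among 8854 genes at 5 CPM or more, and these points share libraries and depth. For Mdm2 they were Tapt1 and Eif1a (Pearson r of 0.995 for both), for Phlda3 Bcl7c (0.991) and Ttyh3 (0.990), and for Trp53inp1 Cyr61 (0.993) and Acot1 (0.992). For Zmat3 they were Srsf6 and Ahsa2 (0.990 for both), for Eda2r Casp6 (0.981) and Katnbl1 (0.975), and for Ccng1 Rabep1 (0.976) and Pcbp4 (0.975). For Btg2 they were Gemin7 (0.977) and Eif3h (0.943), for Sesn1 Srpk2 (0.952) and Aamdc (0.928), for Aen Lamtor3 (0.944) and Qpctl (0.930), and for Sesn2 Tmcc3 (0.891) and Fundc1 (0.860). Phlda3 and Eda2r lie under 5 CPM and could not be listed as neighbours.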

How the data were processed

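Hepatocytes were fixed, sorted by tdTomato and read with the probe-based 10x Genomics Flex assay. The authors deposited a filtered matrix of UMI counts per gene and cell for each library, made per the labels with Cell Ranger 7.2.0 on mm10. Cells with a mitochondrial share of at most 0.05, 2000 to 10000 genes and at most 100000 UMIs were kept, as in the study, from 23220 Tom- and 16339 Tom+ barcodes (681279005 and 715333889 UMIs). Both libraries were clustered together (scanpy 1.11.5, leidenalg 0.10.2, 2000 variable genes, 30 components, 20 neighbours, resolution 0.8), and a cluster was dropped when its median gene number was under 0.75 of the overall one, or when its level of Pecam1, Ptprc or Dcn reached 2.5 times that of the median cluster. UMIs were summed over cells and given as CPM. Ratios have exact conditional intervals. Ratios used for calls and medians carry a pseudocount of 0.5. No p-values were computed, as each group has 1 library. A gene was tested with at least 200 UMIs over both sums, and position and Cdkn1a calls needed the same direction in both libraries. Position bins are ranges of a score: 21.3% of cells lay near a cut point. The members and lists were chosen with earlier results of these data known. The named genes were the 10 members with Cdkn1a and Trp53 as references, Cdkn2a for the sort label, listed genes past the fold, and the genes most alike. Gene positions come from GENCODE vM21 and promoters from RefSeq. Scripts were tested on simulated data. Alternatives changed the filters, gate, scaling, thinning, bins, fold and count minimum; leaving out clusters led by other cell types was added after seeing the data.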

Additional observations from a re-analysis of the deposited data

How the results depend on the processing

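Of the members past the fold, none was called between libraries (0) when they were compared within positions or at a fold of 2, and 2 (Mdm2, Phlda3) at a fold of 1.25. Between the lobule ends, 2 were called at a fold of 2 (Phlda3, Eda2r) and 3 with at least 1000 UMIs (Mdm2, Trp53inp1, Zmat3). Between Cdkn1a groups, 5 were called after thinning to 5000 UMIs (Phlda3, Btg2, Eda2r, Zmat3, Aen), 7 at a fold of 1.25, and 0 with at least 1000 UMIs, a minimum that Phlda3 and Eda2r did not reach. Other alternatives kept the counts within 1.5 times, and in several of them Aen or Zmat3 joined Phlda3 and Eda2r between Cdkn1a groups. Shares of all genes are given for the main settings only, so these counts have no background beside them. Of the single-gene ratios, 10 of 110 between libraries, 9 of 260 between lobule ends and 3 of 260 between Cdkn1a groups changed sign. No paired analysis was possible because Tom- and Tom+ have 1 library each. Nothing here measures variation between animals.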
